A study of Homo sapiens with 4 samples.

Results

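The genes described here are 37 genes of glucose transport, glycolysis and the response to low oxygen, taken by name through the array platform's gene annotation, and 36 of them were measured among 19775 genes in all. They comprise 25 genes of the path from glucose uptake to lactate and pyruvate and 12 other targets of the hypoxia-inducible factors (HIF), grouped by pathway step. CA9, a carbonic anhydrase of hypoxic tumours, has no array value here and enters only the promoter search. Of the 36, 28 lay at or above the median level of all genes, and no value of any of them lay below the 25th percentile of its array.

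The cells were HuH7, an established human liver cancer line (hepatocellular carcinoma). The study asked how loss of KDM6B, a histone demethylase that removes a repressive methyl mark, bears on lipotoxicity, the damage that excess fat does to cells. There were 4 Affymetrix 3′ expression arrays, 2 from KDM6B wild-type cells and 2 from KDM6B knockout cells. Knockout cells had received a KDM6B guide vector and a Cas9 vector, were selected with G418 and were subcloned by limiting dilution. The labels do not give an empty vector or subcloning for the wild-type cells, name no clone for either knockout array, and give no exposure to low oxygen or to fatty acids. Nothing says that arrays of a group came from separate cultures, so p-values measure only the spread between these arrays, which may be technical. A difference caused by losing KDM6B cannot be told apart from one between the cells sampled for each group, such as a difference between subclones.

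Glycolysis converts glucose to pyruvate in the cytosol, and lactate dehydrogenase turns pyruvate into lactate when it does not enter the mitochondrion. Under low oxygen, prolyl hydroxylases of the EGLN family no longer mark HIF for destruction, and HIF then raises transcription of most glycolytic enzymes, of growth and pH regulators such as VEGFA and CA12, and of EGLN1 and EGLN3 themselves as feedback. Hepatocytes normally take up glucose through SLC2A2 and phosphorylate it with glucokinase, whereas hepatoma cells often use HK2 and the M form of pyruvate kinase.

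Values are RMA log2 levels, and a difference is knockout minus wild type with its standard error (SE) from limma. A gene is said to rise or fall where limma's p-value, adjusted by Benjamini-Hochberg over all 19775 genes, was under 0.05. A probe set is called specific or less specific by its name on the array, the latter being able to bind related transcripts too. By the adjusted p, 6 of the 36 genes rose (PFKFB3, ENO2, NDRG1, P4HA2, PKM and P4HA1), SLC2A2 alone fell and 29 did not pass. Of all genes, 3.14% rose and 3.94% fell, 7.07% together. Since bright genes are called more often, the same shares among genes at or above the median level were 5.24% and 6.86%, against 5 up and 0 down of the 28 members in that range (limma, with 10 up and 1 down at an unadjusted p under 0.05). At that unadjusted cut limma had 1725 of all 19775 genes up and 2239 down. Among the 9888 genes at or above the median level it had 1313 up and 1912 down. Unadjusted counts below are to be read against these. The difference was positive in 28 of the 36 and in 52% of all genes. The median difference of the 36 was 0.18, and that of all genes was 0.0097. Both knockout arrays lay above both wild-type arrays for 20 of the 36 and below them for 4, where 22.4% and 23.5% of all genes did so. In the other 12 the groups overlapped.

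Almost all member calls ended with any 1 array left out, a fit that leaves 1 array in a group. Most calls over all genes ended in these fits too. Over them the difference ran from 0.98 to 1.07 for NDRG1, 0.92 to 1.23 for PFKFB3 and 0.93 to 1.15 for ENO2. It ran from 0.54 to 0.66 for PKM, 0.57 to 0.80 for P4HA2 and 0.44 to 0.68 for P4HA1. For SLC2A2 it ran from -1.04 to -0.92. The direction of each of the 7 was the same with any array left out. It could not have been otherwise, since the groups of these genes did not overlap. A fit with the replicate number as a block called 0 of the 36 (limma, with 11 up and 2 down at an unadjusted p under 0.05). Over all 19775 genes that fit called 94 up and 81 down, where the main fit called 620 and 779. Without the intensity trend of the variance prior ENO2, NDRG1, PFKFB3 and SLC2A2 kept their calls, and PKM (adjusted p = 0.0692), P4HA2 (0.0672) and P4HA1 (0.111) lost theirs. Calls over all genes then numbered 374 up and 409 down.

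**Figure D1:**
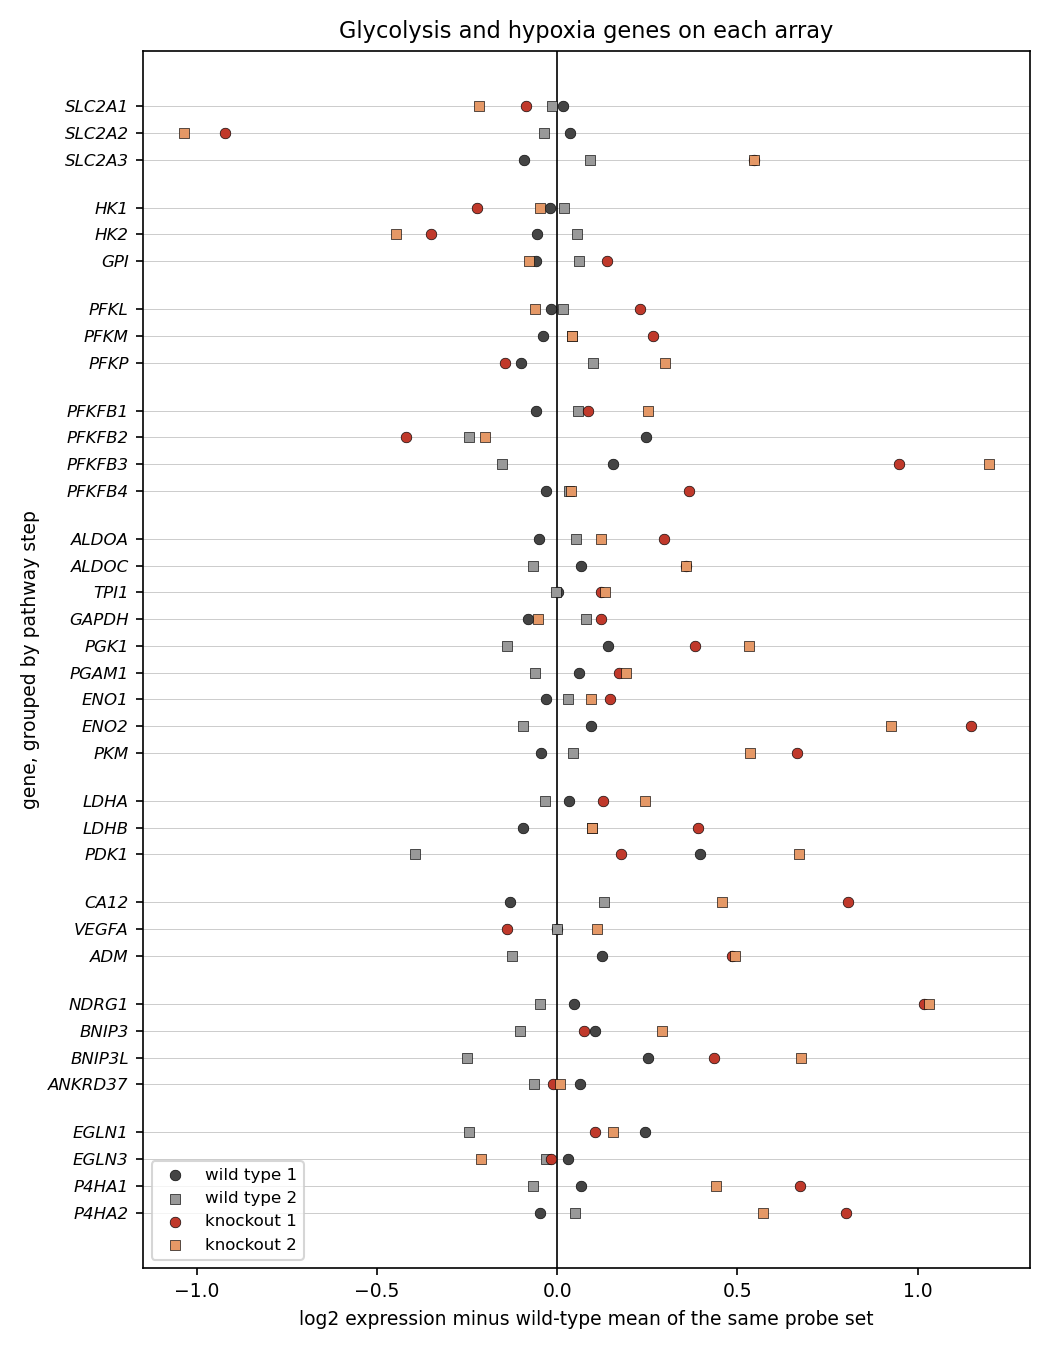
Log2 level of 36 genes on each of the 4 arrays, minus the wild-type mean of the same probe set (horizontal axis), by gene in order of pathway step (vertical axis). Both knockout arrays of NDRG1, PFKFB3 and ENO2 lie well to the right of the wild-type arrays and those of SLC2A2 to the left, while PDK1 and EGLN1 have a wild-type 1 point among or beyond the knockout points.

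Among glucose transporters, SLC2A2, the low-affinity carrier of liver and pancreatic beta cells, fell 1.97-fold. It read 5.54 and 5.47 on the wild-type arrays and 4.58 and 4.47 on the knockout arrays, a difference of -0.98 (SE 0.15, limma adjusted p = 0.0208). The groups lay far apart relative to their spread, and this gene has a single, specific probe set. SLC2A3, a high-affinity carrier known from neurons, read 4.79 and 4.97 in wild type and 5.43 on both knockout arrays, and did not pass (0.55, adjusted p = 0.106). Its other probe sets gave 0.39 and 1.05, none called, and all 3 are less specific. SLC2A1, the widespread carrier and a HIF target, read 7.23 and 7.20 in wild type against 7.13 and 7.00 in knockout (-0.15, 95% interval -0.44 to 0.14), and its specific probe set gave the opposite sign, 0.26, also without passing.

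No gene of the first steps inside the cell passed. HK2, the hexokinase typical of tumours, read 10.31 and 10.42 in wild type against 10.02 and 9.92 in knockout, with no overlap, but missed the threshold (-0.40, SE 0.092, adjusted p = 0.0663). Its 3 probe sets, all specific, gave -0.40 to -0.26. HK1 (-0.14) and GPI, which isomerises glucose phosphate (0.029), did not pass. For this step limma called 0 of 3 in either direction, with 0 up and 1 down at an unadjusted p under 0.05. The 3 phosphofructokinase subunits, the main control point of the pathway, differed by 0.077 (PFKP) to 0.15 (PFKM) and overlapped between groups, with 0 of 3 called by limma and 0 at an unadjusted p under 0.05. PFKM read 9.86 and 9.94 in wild type against 10.17 and 9.94 in knockout.

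PFKFB3 rose 2.11-fold, the largest difference among the 36. It encodes the most kinase-biased of the enzymes that make the sugar phosphate activating phosphofructokinase, and it is a HIF target. It read 7.73 and 7.42 in wild type against 8.52 and 8.77 in knockout (7.57 ± 0.22 against 8.65 ± 0.18, SD, n = 2 each), a difference of 1.07 (SE 0.15, adjusted p = 0.0183). The lowest knockout value stood above the highest wild-type value, and the single probe set is less specific. The other 3 genes of this family did not pass. PFKFB4 read 8.63 and 8.70 in wild type against 9.03 and 8.70 in knockout (0.20), PFKFB1 differed by 0.17, with 2 of 3 probe sets of the other sign, and PFKFB2 by -0.31, the last with 1 of 4 probe sets of the other sign. PFKFB1, on the X chromosome, lies among 20 measured neighbours (the nearest 10 on each side at or above the median level) whose median difference was -0.54.

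From aldolase to pyruvate kinase all 9 genes had positive differences, from 0.035 (GAPDH) to 1.04 (ENO2), with a median of 0.21, and the knockout arrays lay above the wild-type arrays in 8. Only ENO2 and PKM passed (2 up, 0 down, with 4 up and 0 down at an unadjusted p under 0.05 in limma). Of all genes, 52% had a positive difference and 22.4% had both knockout arrays above both wild-type arrays. By the adjusted p, 3.14% of all genes rose and 3.94% fell. Among genes at or above the median level these shares were 5.24% and 6.86%. ENO2, the neuronal enolase, read 5.47 and 5.29 in wild type against 6.53 and 6.31 in knockout, a 2.05-fold rise (1.04, SE 0.16, adjusted p = 0.0210) on 1 specific probe set. Its widespread relative ENO1 differed by 0.12 (95% interval -0.071 to 0.31) and did not pass. The 1 specific ENO1 probe set, at a low level, gave -0.44 and was not called. PKM, which encodes both M forms of pyruvate kinase, read 8.90 and 8.99 in wild type against 9.61 and 9.48 in knockout, a 1.52-fold rise (0.60, SE 0.098, adjusted p = 0.0260). A second PKM probe set gave 0.30 and was not called. The 20 measured neighbours of PKM on chromosome 15 had a median difference of 0.30, and their part in the PKM difference was not tested. The array annotation names PKM as a whole, so the forms made by alternative splicing were not separated.

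PGK1, which makes ATP in the later part of glycolysis and is a well known HIF target, had all 6 of its probe sets higher in knockout, by 0.25 to 0.75. The brightest read 12.57 and 12.29 in wild type against 12.81 and 12.96 in knockout and did not pass (0.46, SE 0.12, adjusted p = 0.0931). The mean over the 6 was called (0.52, adjusted p = 0.0418). When each probe set was tested as its own feature, an alternative chosen after seeing the data in which 1.67% of 41091 probe sets were called up and 2.18% down, 2 of the 6 were called up (0.59, adjusted p = 0.0306, and 0.75, adjusted p = 0.0216), and the second of these is specific. The wild-type arrays differed by more than the knockout arrays on the brightest one (SD 0.20 against 0.11). GAPDH, often used as a reference gene, read 13.77 and 13.93 in wild type against 13.98 and 13.80 in knockout, with overlapping groups. Its interval ran from -0.22 to 0.29, and its other probe sets gave 0.0029 and -0.0055. ALDOA (0.21), ALDOC (0.36), TPI1 (0.13) and PGAM1 (0.18) did not pass. In each, both knockout arrays lay above both wild-type arrays, as in 22.4% of all genes.

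At the end of the pathway LDHA, the muscle-type lactate dehydrogenase subunit, read 13.37 and 13.30 in wild type against 13.46 and 13.57 in knockout (0.19, SE 0.083, adjusted p = 0.299). LDHB, the heart-type subunit, differed by 0.24 without passing. PDK1, which switches off pyruvate dehydrogenase, read 8.59 and 7.80 in wild type against 8.37 and 8.87 in knockout, so that wild type 1 lay between the knockout values. Its interval was wide, -0.31 to 1.16, and 1 of its 3 probe sets had the other sign. Of these 3 genes limma called 0, with 0 at an unadjusted p under 0.05.

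**Figure D2:**
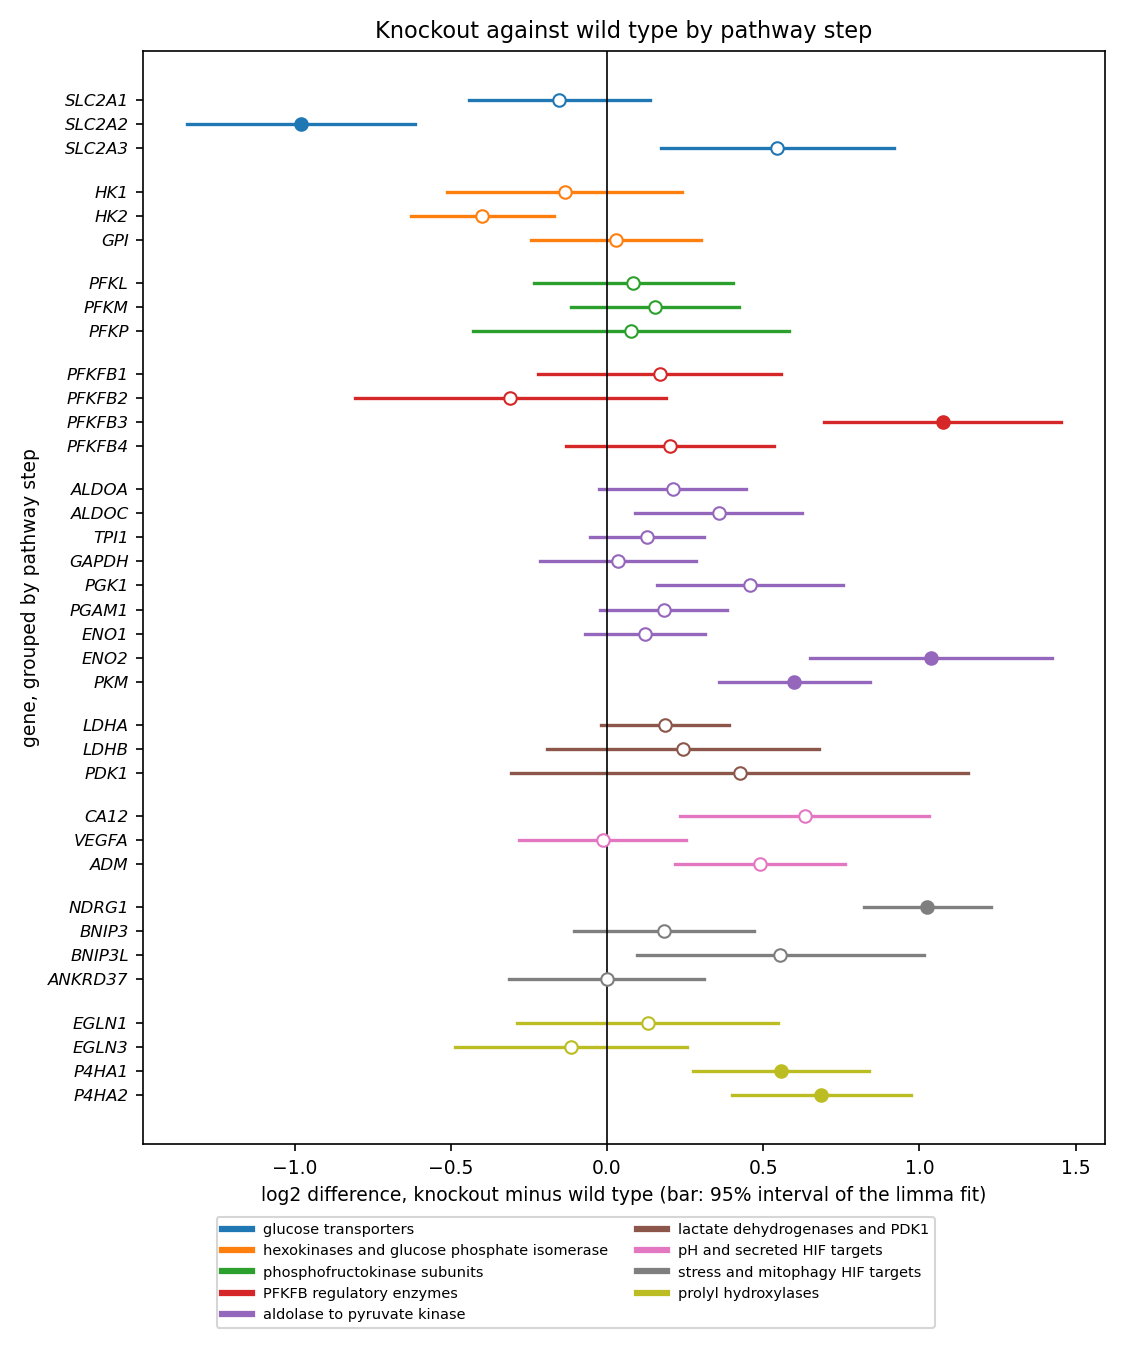
Log2 difference, knockout minus wild type, of 36 genes (horizontal axis) by pathway step (vertical axis and colour). Points are estimates, bars are 95% intervals of the limma fit, and filled points passed at an adjusted p under 0.05: PFKFB3, ENO2, PKM, NDRG1, P4HA1 and P4HA2 to the right of 0 and SLC2A2 to the left.

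The other 11 measured HIF targets had a median difference of 0.49, and 3 rose, 0 fell and 8 did not pass (limma, with 6 up and 0 down at an unadjusted p under 0.05). The shares called were 27.3% up and 0% down, against 3.14% and 3.94% of all genes. All of these targets but EGLN3 lay at or above the median level, where 5.24% of genes rose and 6.86% fell. NDRG1, a stress-responsive gene widely used as a hypoxia marker, had the smallest adjusted p of the 36. It read 10.73 and 10.63 in wild type against 11.70 and 11.71 in knockout, a 2.03-fold rise (1.02, SE 0.082, adjusted p = 0.0042). Replicates of this gene agreed closely, and its single probe set is less specific. The mitophagy receptors BNIP3 and BNIP3L did not pass. BNIP3 read 12.32 and 12.11 in wild type against 12.29 and 12.50 in knockout, with overlap (0.18), and BNIP3L read 10.23 and 9.73 against 10.42 and 10.66 (0.55, SE 0.18, adjusted p = 0.167). ANKRD37, a small HIF-induced gene, differed by -0.0015.

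Both listed subunits of collagen prolyl hydroxylase rose. In the prolyl hydroxylase step, EGLN genes included, limma called 2 of 4 up and 0 down, against 3.14% and 3.94% of all genes. P4HA2 read 8.54 and 8.64 in wild type against 9.39 and 9.16 in knockout, a 1.61-fold rise (0.69, SE 0.12, adjusted p = 0.0282), and its 3 probe sets, all specific, gave 0.29 to 0.69. P4HA1 read 10.08 and 9.94 in wild type against 10.69 and 10.45 in knockout, a 1.47-fold rise that passed narrowly (0.56, SE 0.11, adjusted p = 0.0474). That call also ended with the mean over probe sets (adjusted p = 0.197) and when arrays were centred on their medians (adjusted p = 0.071). The other P4HA1 probe set, a specific one read at a mean log2 level of only 2.05, gave 0.24 and was not called. Tested among all probe sets, the brightest P4HA1 one missed the threshold as well (adjusted p = 0.0658). The oxygen sensors themselves did not pass. EGLN1 read 9.98 and 9.50 in wild type against 9.84 and 9.89 in knockout (0.13, interval -0.29 to 0.55), its 4 probe sets giving 0.087 to 0.13. EGLN3 differed by -0.11, with 1 of 2 probe sets of the other sign. The neighbours of EGLN1 and EGLN3 had median differences of -0.36 and -0.37.

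Of the targets that act on the surroundings of the cell none passed (limma 0 of 3, with 2 up and 0 down at an unadjusted p under 0.05). VEGFA, the main angiogenic factor, read 11.00 on both wild-type arrays and 10.86 and 11.11 on the knockout arrays (-0.014, interval -0.28 to 0.25), and its 4 probe sets gave -0.15 to 0.040. ADM, the vasodilator adrenomedullin, read 10.08 and 9.83 against 10.44 and 10.44 in knockout (0.49, SE 0.11, adjusted p = 0.0613). The same ADM values were called when all genes were read by the mean over probe sets (adjusted p = 0.0479). CA12, a membrane carbonic anhydrase, read 7.94 and 8.20 in wild type against 8.87 and 8.52 in knockout (0.63, SE 0.16, adjusted p = 0.0842). All 7 CA12 probe sets were positive, from 0.11 to 0.76, and only the highest was called when tested as its own feature (limma adjusted p = 0.0325). That probe set is less specific. The brightest specific one gave 0.70 and was not called (adjusted p = 0.0644).

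**Figure D3:**
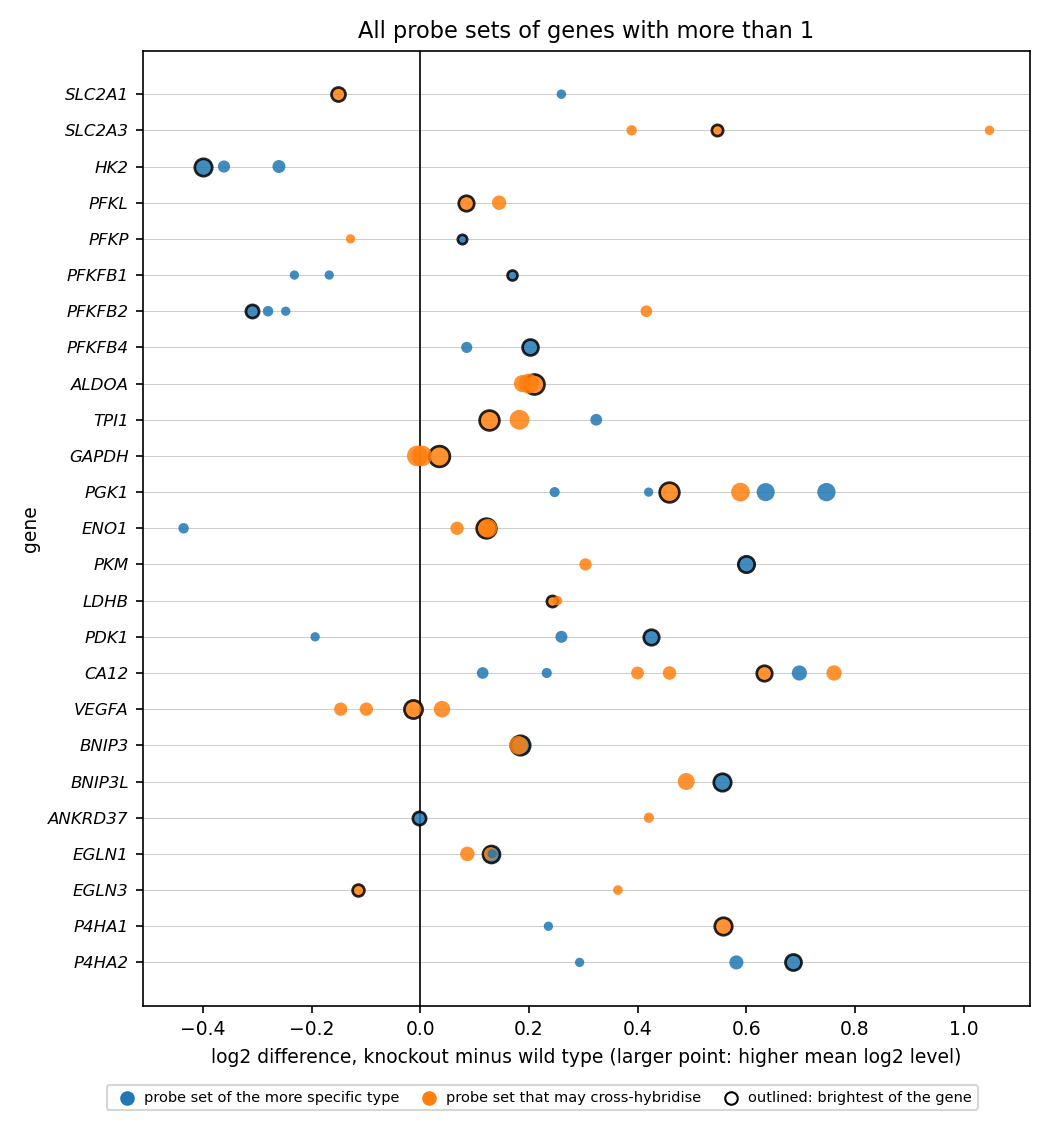
Log2 difference, knockout minus wild type (horizontal axis), of every probe set of the genes with more than 1 (vertical axis). Colour gives the probe set type, outlines mark the brightest probe set of each gene and larger points have a higher mean log2 level; all 6 PGK1 and all 7 CA12 points lie right of 0, while SLC2A1, PFKFB2 and EGLN3 have points on both sides.

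The genes that rose do not share 1 place in the genome. In GRCh38.p14, PFKFB3 (chr10:6144921-6326637) and P4HA1 (chr10:73007217-73096866) lie far apart on chromosome 10, with ENO2 on chromosome 12, PKM on 15, P4HA2 on 5 and NDRG1 on 8. Median differences of the 20 measured neighbours were -0.11 around PFKFB3, -0.011 around P4HA1, 0.045 around ENO2, 0.060 around P4HA2 and -0.13 around NDRG1. SLC2A2 (chr3:170996347-171026720) had a neighbour median of -0.0074. Only around PKM did these neighbours differ in the same direction by more than 0.1.

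HIF binds the short core ACGTG or GCGTG, and the 250 bases before the RefSeq start of 32 of the 37 listed genes, CA9 included, were searched for both cores on either strand. At least 1 match was found in 19 of the 32 (59.4%) and in 43.1% of 27305 promoters of the same length, and the members' windows also held more CG pairs (median 22 against 11), the pair that both cores contain. Among called genes, PFKFB3, ENO2 and P4HA1 had 1 match each, PKM, P4HA2 and SLC2A2 had 0, and NDRG1 was not searched. Matches were also found in members that were lower or not called: HK2, at -0.40, had 3, ANKRD37, at -0.0015, had 3, and BNIP3 and ALDOC, neither called, had 6 and 5, counting overlapping ones. The windows below show the 3 risen genes with a match, PGK1 with its 3 matches, and SLC2A2, the gene that fell. They were picked to show these genes and do not stand for the other members. They are RefSeq sequence of GRCh38.p14, written 5′ to 3′ on the gene's strand, with capitals marking the cores or their reverse complements: PFKFB3 (chr10:6144671-6144920, plus strand), ENO2 (chr12:6914330-6914579, plus), P4HA1 (chr10:73096867-73097116, minus), PGK1 (chrX:78103998-78104247, plus) and SLC2A2 (chr3:171026721-171026970, minus).
PFKFB3: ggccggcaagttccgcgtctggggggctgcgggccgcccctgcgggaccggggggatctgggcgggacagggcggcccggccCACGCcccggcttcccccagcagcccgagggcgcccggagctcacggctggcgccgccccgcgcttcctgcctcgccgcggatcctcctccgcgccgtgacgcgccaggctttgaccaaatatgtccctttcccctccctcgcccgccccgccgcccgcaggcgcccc
ENO2: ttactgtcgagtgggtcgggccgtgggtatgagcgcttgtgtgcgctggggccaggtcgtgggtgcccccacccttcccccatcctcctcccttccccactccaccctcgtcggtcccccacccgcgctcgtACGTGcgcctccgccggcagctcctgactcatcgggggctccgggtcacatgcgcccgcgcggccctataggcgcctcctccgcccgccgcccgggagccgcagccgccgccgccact
P4HA1: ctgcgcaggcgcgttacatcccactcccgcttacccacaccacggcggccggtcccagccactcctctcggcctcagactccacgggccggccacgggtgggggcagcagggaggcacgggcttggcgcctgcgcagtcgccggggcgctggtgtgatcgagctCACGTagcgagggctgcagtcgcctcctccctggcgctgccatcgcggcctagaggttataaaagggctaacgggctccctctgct
PGK1: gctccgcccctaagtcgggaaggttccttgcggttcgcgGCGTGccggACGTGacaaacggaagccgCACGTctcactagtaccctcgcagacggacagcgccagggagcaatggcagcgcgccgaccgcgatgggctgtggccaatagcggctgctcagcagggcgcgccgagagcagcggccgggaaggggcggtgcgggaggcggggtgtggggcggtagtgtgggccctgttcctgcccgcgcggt
SLC2A2: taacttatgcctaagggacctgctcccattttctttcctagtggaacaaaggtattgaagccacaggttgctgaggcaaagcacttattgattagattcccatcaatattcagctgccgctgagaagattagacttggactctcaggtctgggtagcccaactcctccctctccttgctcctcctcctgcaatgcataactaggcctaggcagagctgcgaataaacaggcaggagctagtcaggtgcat
The matches begin 168 bases before the start in PFKFB3, 118 in ENO2, 86 in P4HA1, and 211, 202 and 183 in PGK1. A match describes letters only, and no binding was measured.

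Other genes of the pathway, listed by role, did not shift one way. Of 92 measured, 4 rose, 5 fell and 83 did not pass, shares of 4.35% and 5.43% against 3.14% and 3.94% of all genes, with a median difference of 0.025. The median pools lists that differ, from -0.14 for pyruvate and lactate fate to 0.19 for further HIF targets. HIF1A, the oxygen-regulated HIF subunit, read 12.07 and 12.09 in wild type against 12.20 and 12.19 in knockout (0.11, SE 0.074, adjusted p = 0.513). Of the 14 genes of the HIF machinery limma called 0 in either direction, with 1 up and 0 down at an unadjusted p under 0.05, and the median was 0.033. With 7.07% of all genes called, 0 of so few genes does not set this list apart. HIF1A is regulated mainly by protein stability, which arrays do not measure.

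Among 33 further HIF targets, 4 rose, 2 fell and 27 did not pass, with a median of 0.19. The shares called were 12.1% up and 6.06% down, against 3.14% and 3.94% of all genes. Among genes at or above the median level they were 5.24% and 6.86%. AK4, a mitochondrial adenylate kinase, read 9.61 and 9.59 in wild type against 10.61 and 10.59 in knockout (1.00, SE 0.081, adjusted p = 0.0043). CXCR4, a chemokine receptor, read 5.53 and 5.01 against 6.29 and 6.34 (1.04, SE 0.20, adjusted p = 0.0414), a call that ended with only specific probe sets (adjusted p = 0.0517), without the trend (0.0618) and with median-centred arrays (0.0555). MXI1, a MYC antagonist, read 10.40 and 10.49 against 11.16 and 10.93 (0.60, SE 0.11, adjusted p = 0.0347, or 0.0912 without the trend). The fourth was KDM3A, a histone demethylase that is itself a HIF target, with 0.58 (SE 0.12, adjusted p = 0.0456), a call that ended with the mean over its probe sets (adjusted p = 0.52), without the trend (0.101) and with median-centred arrays (0.0859). It stands outside the rule for named genes and was added after its value was seen. In the opposite direction DDIT4, an inhibitor of mTOR signalling, read 12.19 and 12.31 in wild type against 11.49 and 11.37 in knockout (-0.82, SE 0.090, adjusted p = 0.0092). IGFBP1, a liver-secreted binding protein of insulin-like growth factors, read 6.03 and 5.34 against 4.16 and 3.67 (-1.77, SE 0.29, adjusted p = 0.0262). The mean over its probe sets gave a smaller fall (-0.91, adjusted p = 0.027), and left-out arrays gave -2.12 to -1.43, none called.

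Of 13 genes of pyruvate and lactate fate, MPC1 fell and 0 rose (limma, with 0 up and 5 down at an unadjusted p under 0.05), with a median of -0.14. The share down was 7.69%, against 3.94% of all genes and 6.86% of genes at or above the median level. MPC1, a subunit of the mitochondrial pyruvate carrier, read 11.24 and 11.10 in wild type against 10.70 and 10.74 in knockout (-0.45, SE 0.089, adjusted p = 0.0428). It lies on chromosome 6 among neighbours with a median of -0.32, and its call ended with the mean over probe sets (adjusted p = 0.263), only specific probe sets (0.0559), no trend (0.123) and median-centred arrays (0.0677). Its partner MPC2 gave -0.30 and did not pass (adjusted p = 0.0867).

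Of 13 genes of the pentose phosphate and glycogen branches, TKT fell and 0 rose (limma, with 1 up and 3 down at an unadjusted p under 0.05). The share down was 7.69%, against 3.94% of all genes and 6.86% of genes at or above the median level. TKT, the transketolase that links the pentose pathway to glycolysis, read 11.62 and 11.61 in wild type against 11.15 and 11.00 in knockout (-0.54, SE 0.089, adjusted p = 0.0261), and the call ended with only specific probe sets (adjusted p = 0.221) and without the trend (0.0869). Of 19 other glycolytic isoenzymes and glucose transporters, ENO3 fell and 0 rose (limma, with 1 up and 3 down at an unadjusted p under 0.05), a share down of 5.26%. ENO3, the muscle enolase, read 6.10 and 5.77 against 5.08 and 5.12 (-0.84, SE 0.17, adjusted p = 0.0457). It lies on chromosome 17 among neighbours with a median difference of -0.70, whose part in its fall was not tested, and its call ended with the mean over probe sets (adjusted p = 0.22), only specific probe sets (0.0571), no trend (0.0571) and median-centred arrays (0.0506). The 3 enolase genes thus read higher (ENO2), lower (ENO3) and without a call (ENO1).

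KDM6B itself did not pass on its brightest probe set, which read 8.46 and 8.27 in wild type against 7.95 and 8.14 in knockout (-0.32, limma adjusted p = 0.235). All 5 of its probe sets were lower in knockout, from -0.40 to -0.21, and none was called when tested as its own feature. A Cas9 cut need not lower the transcript, so this does not check the labels. Hepatocyte markers were present, with mean log2 levels from 10.56 to 13.85 for the 7 of 8 measured. Of these 7, SERPINA1 and FGB fell and 0 rose (limma, with 0 up and 2 down at an unadjusted p under 0.05). Of all genes, 3.94% fell and 3.14% rose. Of 19 measured markers of fibroblasts, endothelium, leukocytes and stellate cells 2 fell, PECAM1 (-0.88) and LYZ (-1.58), and 0 rose (limma, with 1 up and 2 down at an unadjusted p under 0.05). Their summed log2 level was 93.70 to 96.96 in wild type and 93.57 to 94.25 in knockout, 5 of the 19, the leukocyte marker PTPRC among them, lay below the 25th percentile on all 4 arrays, and the part of these markers in the results was not tested. In bulk RNA, fewer cells of a kind and less RNA per cell cannot be told apart.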

How the data were processed

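Total RNA of 4 HuH7 samples was DNase-treated and labelled with a 3′ amplification kit, per the labels' protocols. The deposited values are log2 levels made by the authors with RMA and the affy package, per the submitters' processing notes (versions: not given in the sources used here). Because RMA brings array distributions close together, a shift common to most genes cannot be seen. The deposited distributions were not equal: the 75th percentile was 7.17 in wild type 1 and 7.06 on the other arrays. No detection calls were used, and 4 arrays limit the precision. Of 54613 probe sets, 41091 had 1 gene symbol, 1801 several and 11721 none in the platform annotation (41037 matched RefSeq of GRCh38.p14 by Entrez identifier, and 0 symbols were updated). Each gene was read by its brightest probe set over the 4 arrays.

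Knockout and wild type were compared with limma 3.58.1 in R 4.3.3 (lmFit, eBayes with intensity trend, two-sided, Benjamini-Hochberg over all genes), with 2 residual and 3.617 prior degrees of freedom. An exact permutation test of these arrays cannot go below p = 0.333. On simulated data of 19775 genes with 200 changed (10 sets), 34.6% of 2-fold and 93.2% of 4-fold changes were recovered and 4.72% of calls were false. These data were drawn from the fit's own variance model with independent noise. The 4.72% is therefore not the error rate of the calls made here. Genes, steps and lists were chosen with earlier results of these data known. Array values are given for members that passed or differed by at least 0.5, for the brightest member of each step, and for up to 3 called genes per other list and direction (the brightest where none was called). Same-numbered arrays did not deviate together (correlation of replicate differences over genes, which are not independent, -0.55). The negative sign means that wild type 1 tended to deviate with knockout 2, and wild type 2 with knockout 1. The cause was not tested. Alternatives covered probe set choice, variance model, normalization, dim genes, thresholds, a block and left-out arrays. Figures used Python 3.11.15 and matplotlib 3.10.9.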

Additional observations from a re-analysis of the deposited data

How the results depend on the processing

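All genes gave 620 calls up and 779 down, the 36 members 6 and 1, and the 92 other pathway genes 4 and 5. Given in that order as up and down, all genes gave 372 and 454 with only specific probe sets (16788 genes and 23 members tested), 374 and 409 without the intensity trend, 968 and 1268 at an adjusted p under 0.10, and 255 and 245 as 2-fold differences with no test. Repeated quantile normalization gave 798 and 767, so that calls up outnumbered calls down. The members kept 4 of their 7 calls without the trend (3 up and 1 down), had 9 up (ADM, CA12 and PGK1 added) and 2 down (HK2 added) at an adjusted p under 0.10 and had 3 up and 0 down as 2-fold differences. Other pathway genes gave 7 up with the mean over probe sets, 2 up and 1 down with only specific probe sets, 1 up and 2 down without the trend, 2 up with median-centred arrays, 8 up and 11 down at an adjusted p under 0.10, and 2 up and 1 down as 2-fold differences. The cause of the change without the trend was not tested. Repeated quantile normalization and the mean over probe sets each added ADM and PGK1 to the member calls, the mean losing P4HA1, and leaving out dim genes added ADM and HK2 but left SLC2A2 untested. With only specific probe sets PFKFB3 and NDRG1 could not be tested, P4HA1 lost its call and PGK1 gained one.

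Leaving out 1 array gave 20 to 118 calls up and 17 to 94 down over all genes, 0 to 1 up and 0 to 0 down among members, and 0 to 0 in either direction among other pathway genes. The lone array of a group was then assumed to vary like the other group. With the replicate number as a block, limma made 94 calls up and 81 down over all genes, 0 up and 0 down among members (11 up and 2 down at an unadjusted p under 0.05), and 0 up and 1 down among other pathway genes. The crossed pairing as a block, chosen after seeing the data, gave 1567 and 2095, 16 and 2, and 18 and 16. The numbers were not taken as pairing the arrays.

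A left-out array could not change the sign of a called member, whose groups did not overlap, and a block leaves the difference unchanged. No called member changed sign under any other alternative. Uncalled ones did: with the mean over probe sets SLC2A1 (0.054), PFKP (-0.026), PFKFB1 (-0.077), ENO1 (-0.031), ANKRD37 (0.21) and EGLN3 (0.12), with only specific probe sets SLC2A1 (0.26) and ENO1 (-0.44), with repeated quantile normalization VEGFA (0.014) and ANKRD37 (0.045), and with median-centred arrays GPI (-0.0017). Over left-out arrays the differences ran from -0.079 to 0.14 for GPI, -0.15 to 0.30 for PFKP, -0.061 to 0.23 for PFKL, -0.052 to 0.12 for GAPDH, -0.11 to 0.37 for EGLN1, -0.14 to 0.11 for VEGFA and -0.064 to 0.061 for ANKRD37.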

Other observations

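Wild type 1 read higher than wild type 2 for 8 of the 11 other HIF targets, with a median difference of 0.13, against 11 of the 25 glycolysis genes (median -0.037) and 43.4% of all genes (median -0.037). The widest wild-type spread among the 36 was that of PDK1 (SD 0.56), and EGLN1 and BNIP3L had wild-type SDs of 0.34 and 0.35.

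SLC2A3 and ALDOC had the same deposited value on both knockout arrays to every digit, as did 124 of the 19775 genes, and 93 genes did so on both wild-type arrays. The spread of such a gene in that group is therefore listed as 0, and its SE rests on the other group and on the prior of the fit.

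Between genes that serve one step, the differences seen here were not alike: PFKFB3 and PFKFB2 gave 1.07 and -0.31, and ENO2 and ENO3 1.04 and -0.84. PFKFB2 was not called, its groups overlapped and 1 of its 4 probe sets had the other sign. ENO3 lies among neighbours with a median of -0.70, and the mean over its probe sets gave -0.36 and was not called. No test compared one gene with another, and probe sets differ in their response.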
